A study of Mus musculus with 8 samples.

Results

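Translation initiation factors were examined in 4T1 cells, a mouse mammary carcinoma line, after 48 hours with 5 mM acetate. The members were the protein-coding genes whose symbol begins with Eif1 to Eif6, without the Eif2ak kinases. Of 51 annotated genes that met this rule, 48 had a row in the table of 20189 genes, and Eif2s3y, Eif4e1b and Eif4e3 were not analysed here. They fell into 3 eIF2 subunits, 5 eIF2B subunits, 14 eIF3 subunits, 11 eIF4 factors, 3 eIF4E-binding proteins (4E-BPs) and 12 other factors. The study treated these cells to learn how a greater supply of acetyl-CoA bears on metastasis. Messenger RNA came from 4 acetate and 4 vehicle libraries of wild-type (WT) cells. All were grown in DMEM with serum, and the vehicle was water (H2O). Libraries of the same number, which share a code in their labels, were taken as 4 pairs, and each group is 1 cell line sampled 4 times. The p-values set the change against the spread of the acetate minus vehicle differences between pairs, except where the pairing was left out.

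Initiation begins when eIF2, bound to GTP, brings the initiator tRNA to the small ribosomal subunit, which eIF3, eIF1, eIF1A and eIF5 hold in a scanning form. After start codon recognition eIF2 is left with GDP, and eIF2B exchanges it for GTP. The mRNA is brought in by eIF4F, in which eIF4E binds the cap, eIF4A unwinds and eIF4G bridges to eIF3. The 4E-BPs compete with eIF4G for eIF4E when mTORC1 leaves them unphosphorylated. Most of this control acts on proteins, and only mRNA was measured here.

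Values are normalised reads, each gene's reads scaled to 20000000 per library, so that 1 read is worth 0.682 to 1.01 units, depending on the library. The libraries held 19.9 to 29.3 M reads (M, mega), and 47 of the 48 members had a mean of at least 10 units. Both libraries of replicate 1 stood apart from the other 6, with median-of-ratios size factors of 0.898 and 0.912 against 1.02 to 1.05. The member with the lower mean, Eif4ebp3, ranged from 3.26 to 9.05 units. All 5 epithelial markers were present, with Epcam at 4319 to 10020 units. Of these, Krt19 and Cdh1 were higher in acetate in 4 of 4 pairs and rose by 0.40 ± 0.038 (limma with Benjamini-Hochberg adjustment, adjusted p = 0.000254) and 0.15 ± 0.028 (adjusted p = 0.00592) on the log2 scale. The other 3 were not called. Epcam, at 0.068, was higher in 4 of 4 pairs. Krt8, at -0.057, was lower in 4 of 4 pairs and Krt18, at -0.050, in 3 of 4. Among markers of other cell types, Ptprc of leukocytes stayed between 0.682 and 3.02 units, and Pecam1 and Cdh5 of endothelium between 0 and 4.85. Of 3 fibroblast markers in the table, Pdgfra ranged from 229 to 1496 units in vehicle and from 389 to 1961 in acetate. It rose by 0.52 ± 0.056 on the log2 scale (limma with Benjamini-Hochberg adjustment, adjusted p = 0.000372). Pdgfrb, at 0 to 33.1 units, also rose, by 1.40 ± 0.29 (limma, adjusted p = 0.0119), while Dcn stayed between 0 and 14.5 units. The part of these markers in the changes of the initiation factors was not tested.

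Acetate was followed by small falls in 8 of the 48 initiation factor mRNAs and by a rise in 1. Those that fell encode eIF2β (Eif2s2), eIF2Bε (Eif2b5), eIF3c (Eif3c), an eIF4G relative (Eif4g2), 4E-BP1 (Eif4ebp1), eIF1 (Eif1), eIF5 (Eif5) and an eIF1A-domain protein (Eif1ad). The one that rose encodes 4E-BP2 (Eif4ebp2). The called log2 changes ran from -0.30 to -0.12 among the falls, and the rise was 0.11. Calls came from limma on log2(value + 1) with the pair as a block, fitted over all 20189 genes with Benjamini-Hochberg adjustment, at an adjusted p under 0.05. Changes below are on this log2 scale with their standard error, and group means are given ± SD over 4 libraries.

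The members called lower made up 16.7% of the 48, beside 2.65% of all genes, and the member called higher 2.08%, beside 5.99%. Most members are highly expressed, so genes with a mean of at least 1000 units are the nearer background, and of these 7.09% were called lower and 9.38% higher. In the same direction, 18 members (37.5%) were lower in 4 of 4 pairs, against 11.4% of all genes and 22.0% of those with at least 1000 units. Eif4ebp2 and Eif5a2 were higher in 4 of 4 pairs (4.17%, against 16.7% of all genes). The log2 change lay below 0 for 36 members, or 75%, against 45.0% of all genes and 54.2% of those with at least 1000 units. For no member did the 4 vehicle values and the 4 acetate values lie apart without overlap, which 1.65% of all genes did.

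**Figure D1:**
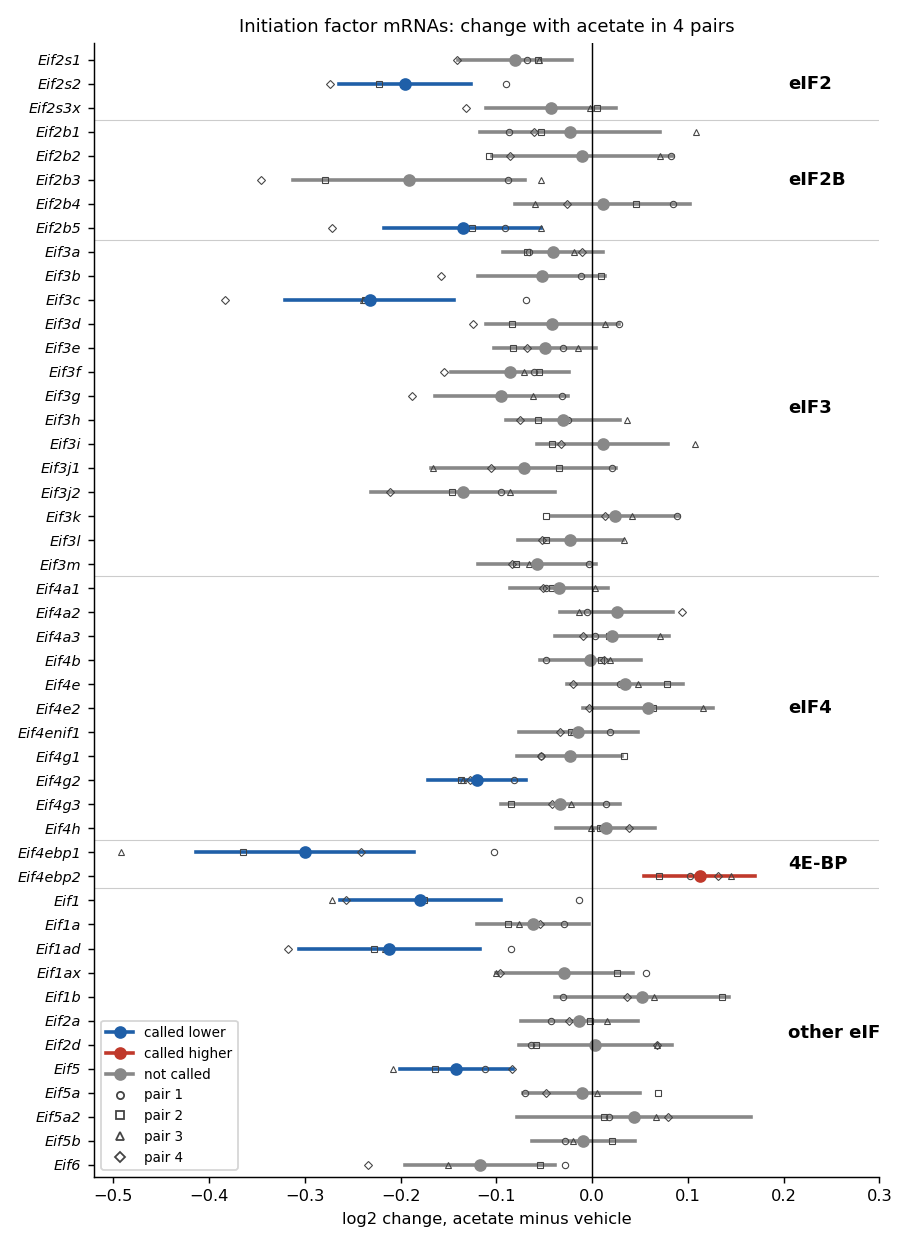
Log2 change (acetate minus vehicle, horizontal axis) of the 47 members with a mean of at least 10 units, by factor group, where large points are the fitted changes, bars their 95% intervals, and small symbols the 4 pairs. The 8 members called lower lie between -0.30 and -0.12, Eif4ebp2 lies at 0.11, and the eIF4 factors other than Eif4g2 sit close to 0.

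The calls rest on the pairing. Without the block, 0.0% of all genes and 0 members were called (limma, with 353 genes and 0 members at an unadjusted p under 0.05). With the block, count models on recovered reads called 14 members lower by edgeR (5.38% of all genes) and 9 by DESeq2 (2.34%), and limma after median-of-ratios scaling called 12 (4.07%). The 8 falls were called in each of these 3 alternatives, and Eif4ebp2 in edgeR only. Quantile scaling lost Eif4g2 (limma, adjusted p = 0.0613), and a pseudocount of 0.1 lost Eif2b5 (limma, adjusted p = 0.0739). Without pair 1, which stood apart, 8 members were called lower and 1 higher, with Eif6 in the place of Eif2b5. Without pair 2, 3 members were called, without pair 4, 2, and without pair 3, 0 (smallest adjusted p = 0.0578 in limma, with 15 members at an unadjusted p under 0.05).

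To show what lies upstream of these genes, the 250 bases before the RefSeq start were searched on both strands for 3 motifs, the E-box CACGTG, the ETS-type motif CCGGAAG and the C/EBP-ATF-type motif TGATGNAA. A CACGTG match and a TGATGNAA match may share bases. Of the 48 members, 38 had an entry in the RefSeq promoter table (GRCm38.p6), and a gene with several starts counted once. CACGTG was found in 9 of them (23.7%), against 6.86% of 27025 genes, and CCGGAAG in 12 (31.6%), against 7.83%. These 27025 genes were not limited by expression. Highly expressed genes, the nearer background for the members, were not counted apart. TGATGNAA was found in 1, Eif2s3x (2.63%), against 3.91%. Of the 9 called members 7 had an entry, and 0 of these 7 held CACGTG while 3 (Eif1ad, Eif3c and Eif4ebp2) held CCGGAAG. The stretches around the matches are shown for the 3 core genes of eIF4F, which were not called, with CACGTG in capitals. They are also shown for Eif3c and Eif4ebp2, which moved in opposite directions, with the reverse complement CTTCCGG in capitals. All run 5′ to 3′ on the strand of the gene. RefSeq starts differ from the GENCODE gene spans given for the genes, so that the stretches of Eif4e and Eif4g1 lie inside those spans and that of Eif3c lies partly inside.
Eif4e (chr3:138527018-138527246, plus strand): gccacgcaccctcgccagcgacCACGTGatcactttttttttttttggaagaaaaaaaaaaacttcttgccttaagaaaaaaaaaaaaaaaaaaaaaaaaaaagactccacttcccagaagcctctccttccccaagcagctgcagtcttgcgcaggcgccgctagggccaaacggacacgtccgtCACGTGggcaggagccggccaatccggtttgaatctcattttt
Eif4a1 (chr11:69672570-69672649, minus strand): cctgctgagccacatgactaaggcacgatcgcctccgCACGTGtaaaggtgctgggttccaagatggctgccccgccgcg
Eif4g1 (chr16:20672636-20672715, plus strand): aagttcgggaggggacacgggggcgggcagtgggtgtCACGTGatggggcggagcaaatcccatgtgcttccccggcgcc
Eif3c (chr7:126566367-126566471, minus strand): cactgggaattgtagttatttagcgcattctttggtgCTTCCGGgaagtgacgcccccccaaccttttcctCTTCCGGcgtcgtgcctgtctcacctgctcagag
Eif4ebp2 (chr10:61452750-61452830, minus strand): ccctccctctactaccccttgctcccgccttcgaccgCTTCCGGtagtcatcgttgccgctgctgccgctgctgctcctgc
The first match begins 228 bases before the start in Eif4e, 189 in Eif4a1, 54 in Eif4g1, 68 in Eif3c and 124 in Eif4ebp2. Eif4e and Eif3c each hold a further match, at 64 and 34 bases. A match of letters is a description and not a bound site, and the same CCGGAAG letters stand before a gene that fell and one that rose.

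Among the 3 subunits of eIF2, 1 fell (33.3%, beside 2.65% of all genes and 7.09% of those with at least 1000 units). Eif2s2, which encodes the β subunit and lies at chr2:154871410-154892935, minus strand of GRCm38 (ENSMUSG00000074656), held 7137, 5819.9, 6657 and 4553 normalised reads in vehicle libraries 1 to 4. The acetate libraries held 6708, 4988, 5806 and 3767. Each acetate value lay below that of its pair, but the groups overlapped, since acetate library 1 was above vehicle libraries 2, 3 and 4. The mean went from 6042 ± 1132 to 5317 ± 1249.6, a log2 change of -0.20 ± 0.031 (limma, adjusted p = 0.00352). This was the smallest adjusted p of all members, and Eif2s2 was called in 10 of 12 alternatives, more than any other.

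The α subunit, encoded by Eif2s1, is where the stress kinases phosphorylate eIF2. It had 6544, 4222, 4389 and 3335 normalised reads in vehicle and 6241, 4059.6, 4222 and 3025 in acetate, lower in 4 of 4 pairs. Its log2 change of -0.080 ± 0.027 did not pass (limma, adjusted p = 0.0965), although edgeR (adjusted p = 0.0321) called it. The γ subunit, encoded by Eif2s3x, had 4317, 2604, 2666 and 2417 in vehicle and 4189, 2614, 2662 and 2206 in acetate. Its change was -0.043 ± 0.031 (limma, adjusted p = 0.465), and pair 2 was slightly higher. The 95% intervals of the 3 subunits were -0.14 to -0.021 for α, -0.26 to -0.13 for β and -0.11 to 0.025 for γ. The interval of β overlapped that of α only between -0.14 and -0.13 and did not reach that of γ, whose lower bound was -0.11, and the difference between subunits was not tested further.

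Of the 5 eIF2B subunits, 1 fell as well (20%, beside 2.65% of all genes and 7.09% of those with at least 1000 units). Eif2b5, which encodes the catalytic ε subunit (ENSMUSG00000003235, chr16:20498817-20509323, plus strand), had 2953, 1987, 2016 and 1709.6 normalised reads in vehicle. In acetate it had 2774, 1822, 1942 and 1416. Pair 4 moved most, and the groups overlapped. The change was -0.14 ± 0.037 (limma, adjusted p = 0.0472), the nearest of the calls to the threshold, and it was called in 6 of 12 alternatives.

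Eif2b3, encoding the γ subunit of the catalytic subcomplex, had 973, 551, 565 and 407 in vehicle and 915, 454, 545 and 319.8 in acetate. It was lower in 4 of 4 pairs, with a larger but noisier change of -0.19 ± 0.055 (limma, adjusted p = 0.0551), and edgeR called it (adjusted p = 0.0179). The regulatory subunits α, β and δ, which sense phosphorylated eIF2, showed no call. Eif2b1 (α) had 1242, 736, 699 and 580.1 in vehicle and 1169, 709, 753 and 556 in acetate. Eif2b2 (β) had 1108, 879, 897 and 862 in vehicle and 1172, 816, 942 and 812 in acetate. Eif2b4 (δ) had 1008, 623, 689 and 504 in vehicle and 1069, 643, 661 and 494 in acetate. In these 3 the pairs disagreed in sign, and the log2 changes of -0.023, -0.010 and 0.011 had 95% intervals that all lay within -0.12 and 0.10. Eif2b4 shares its locus with Snx17 on the opposite strand. The sources used here do not say if reads were assigned by strand, which touches 11 members with an opposite-strand gene in the table.

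**Figure D2:**
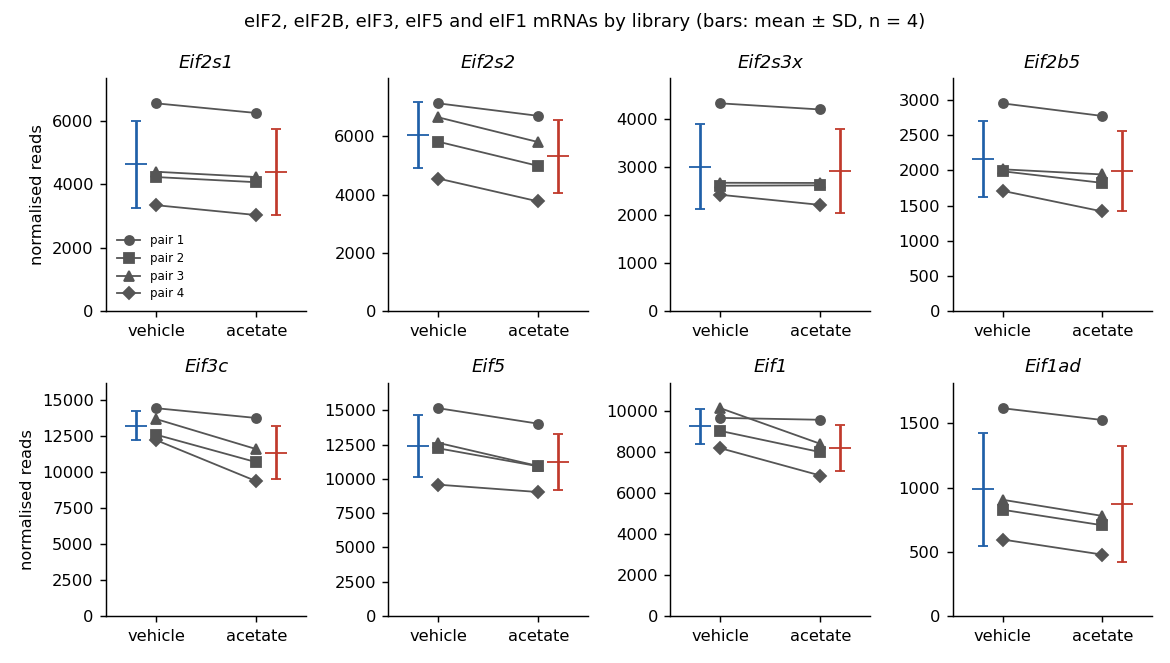
Normalised reads (vertical axes, from 0) of 8 factors of the pre-initiation complex in each library, lines joining the libraries of a pair, with the group mean ± SD beside them. The lines slope down in all 4 pairs for Eif2s2, Eif2b5, Eif3c, Eif5, Eif1 and Eif1ad, while the distance between pairs is larger than the slope in most panels.

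Among the 14 eIF3 subunits, 1 fell (7.14%), beside 2.65% of all genes and 7.09% of those with at least 1000 units. In 12 (85.7%) the log2 change was below 0, beside 45.0% and 54.2%. Eif3c encodes a core subunit that binds eIF1 and eIF5, with a pair of CTTCCGG matches before its RefSeq start (ENSMUSG00000030738, chr7:126546455-126566411, minus strand). It had 14457, 12612, 13699.9 and 12230.4 normalised reads in vehicle and 13776, 10699.7, 11609.6 and 9379 in acetate. In acetate 3 of the 4 libraries lay below every vehicle library, and acetate library 1 alone was above vehicle libraries 2, 3 and 4. The mean went from 13249.6 ± 1017 to 11366 ± 1849.6, a log2 change of -0.23 ± 0.040 (limma, adjusted p = 0.005).

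The other 13 subunits did not pass, with changes from -0.13 to 0.024. Next after Eif3c were Eif3j2 at -0.13 (limma, adjusted p = 0.0865), Eif3g at -0.095 (adjusted p = 0.0977) and Eif3f at -0.085 (adjusted p = 0.0902), all lower in 4 of 4 pairs and all called by edgeR. Eif3j1 and Eif3j2 are close paralogs of the loosely bound j subunit, so the split of reads between them is uncertain. The core subunits Eif3a and Eif3b had -0.041 ± 0.024 and -0.053 ± 0.030. Eif3d, which can bind the cap of some mRNAs, had -0.042 ± 0.032. For Eif3e, Eif3h, Eif3l and Eif3m of the outer ring the changes were -0.049, -0.030, -0.023 and -0.058. The 2 above 0 were Eif3k at 0.024 ± 0.031 and Eif3i at 0.011 ± 0.031, and that of Eif3i turned to -0.0082 after median-of-ratios scaling. No subunit of the complex was called higher, and 7 of the 14 (50%) were lower in 4 of 4 pairs. Of genes with at least 1000 units, 22.0% were.

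The 4E-BPs moved in opposite directions. Eif4ebp1, the main mTORC1 target of the family (ENSMUSG00000031490, chr8:27260329-27276674, plus strand), had 1522, 2337, 3129 and 1626 normalised reads in vehicle and 1417, 1815, 2225 and 1375 in acetate. Vehicle libraries 2 and 3 were the highest of their group, and these were the pairs with the largest falls, with log2 differences of -0.10, -0.36, -0.49 and -0.24 in pairs 1 to 4. Eif4ebp1 fell by 18.8%. The fitted log2 change of -0.30 ± 0.052 was the largest of all members (limma, adjusted p = 0.00497). The groups overlapped, because vehicle library 1 had fewer reads than acetate libraries 2 and 3.

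Eif4ebp2 (ENSMUSG00000020091, chr10:61428491-61452661, minus strand) had 4459, 4335, 3948 and 3913 normalised reads in vehicle and 4788, 4549, 4367 and 4287 in acetate. It was higher in each pair, by 0.10, 0.070, 0.15 and 0.13, and the overlap was narrow, with acetate libraries 3 and 4 below vehicle library 1. The change was 0.11 ± 0.026 (limma, adjusted p = 0.0227), an increase of 8.1%. It passed in edgeR (adjusted p = 0.0372) but not in DESeq2 (0.127) or in limma after median-of-ratios scaling (0.0553), where the change was 0.093. For Eif4ebp3, which rests on few reads, the change was -0.22 ± 0.32 and no difference was detectable at this depth.

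Eif4e, which encodes the cap-binding protein that the 4E-BPs hold (ENSMUSG00000028156, chr3:138526179-138559696, plus strand), had 5468, 3238, 3382 and 2919.6 normalised reads in vehicle and 5580.0, 3418, 3496 and 2879 in acetate. The change was 0.034 ± 0.028, with a 95% interval of -0.027 to 0.094 (limma, adjusted p = 0.528). Within a library, the ratio of Eif4ebp1 to Eif4e reads does not depend on scaling. It was 0.278, 0.722, 0.925 and 0.557 in vehicle and 0.254, 0.531, 0.636 and 0.478 in acetate. The log2 ratio differed by -0.13, -0.44, -0.54 and -0.22 (acetate minus vehicle) in pairs 1 to 4, with a mean of -0.33 ± 0.19 (SD). It was lower in 4 of 4 pairs, with p = 0.125 in a two-sided exact sign-flip permutation test, the smallest p that 4 pairs allow. Per kilobase of annotated exon, vehicle libraries held 981 ± 339 reads of Eif4ebp1, 719.8 ± 47.5 of Eif4ebp2 and 624 ± 193 of Eif4e, and the spreads of the 3 overlap.

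Among the 11 eIF4 factors, Eif4g2 alone was called. This is 9.09%, beside 2.65% of all genes called lower and 7.09% of those with at least 1000 units. Eif4g2 encodes DAP5, an eIF4G relative without a binding site for eIF4E (ENSMUSG00000005610, chr7:111067750-111083030, minus strand). It had 38014, 25806, 25489.7 and 23027 normalised reads in vehicle and 35916, 23473, 23219 and 21073 in acetate. The 4 pairs gave close values, -0.082, -0.14, -0.13 and -0.13, so that a change of -0.12 ± 0.023 passed (limma, adjusted p = 0.0095) although replicate 1 was far above the others in both groups. With quantile scaling the change was -0.088 and the call was lost (limma, adjusted p = 0.0613).

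No canonical part of eIF4F was called. Eif4g1, the main scaffold, had 30988, 19297, 20299.5 and 15542 normalised reads in vehicle and 29854, 19753, 20012 and 14981 in acetate, a change of -0.023 ± 0.025 (95% interval -0.078 to 0.031). Eif4a1, the main helicase, had 31549, 23707, 23329 and 21253 in vehicle and 30522, 23025, 23384 and 20504 in acetate, a change of -0.035 ± 0.023 (95% interval -0.086 to 0.017). Its paralog Eif4a2 had 7486, 7458, 7116 and 6038 in vehicle and 7460.4, 7603, 7048 and 6442 in acetate, a change of 0.026 ± 0.027 (95% interval -0.033 to 0.084). For all 3 the interval held 0 and lay within -0.086 and 0.084, and the pairs disagreed in sign. The ratio of Eif4a1 to Eif4a2 reads ran from 3.18 to 4.21 in vehicle and from 3.03 to 4.09 in acetate. The log2 ratio differed by -0.060 ± 0.067 (SD), lower in 3 of 4 pairs (two-sided exact sign-flip permutation test, p = 0.25, smallest possible 0.125).

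The remaining eIF4 factors had changes from -0.033 to 0.058 with no call. They were Eif4a3 of the exon junction complex (0.020), the helicase cofactors Eif4b (-0.0019) and Eif4h (0.014), the scaffold Eif4g3 (-0.033), the repressive cap binder Eif4e2 (0.058) and Eif4enif1, the eIF4E transporter (-0.014). Those of Eif4b, Eif4g1 and Eif4h changed sign with scaling.

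**Figure D3:**
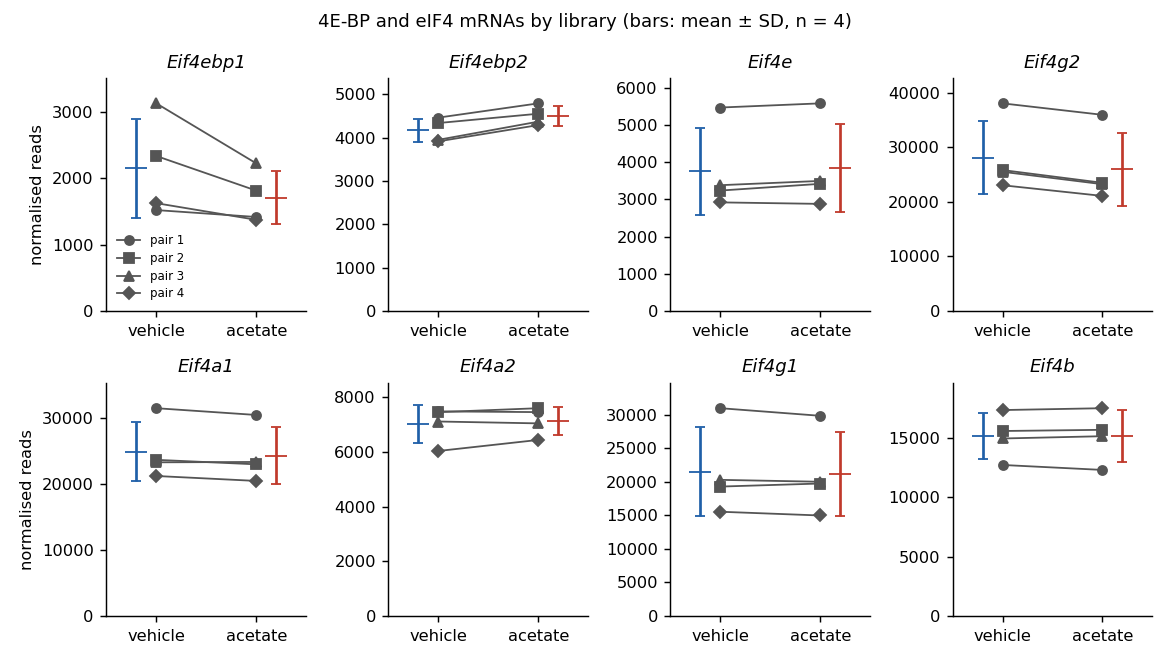
Normalised reads (vertical axes, from 0) of both expressed 4E-BPs and of 6 eIF4 factors in each library, lines joining the libraries of a pair, with the group mean ± SD beside them. Eif4ebp1 and Eif4g2 slope down and Eif4ebp2 slopes up in all 4 pairs, and the lines of Eif4e, Eif4a1, Eif4a2, Eif4g1 and Eif4b are close to level.

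Of the 12 other factors, Eif1, Eif5 and Eif1ad fell (25%, beside 2.65% of all genes and 7.09% of those with at least 1000 units). Eif1, which encodes the factor that keeps the scanning complex open (ENSMUSG00000035530, chr11:100319885-100322096, plus strand), had 9681, 9042, 10153 and 8198 normalised reads in vehicle and 9588, 8006, 8411 and 6861 in acetate. Pair 1 hardly moved (-0.014), pairs 3 and 4 moved most, and the groups overlapped. The change was -0.18 ± 0.038 (limma, adjusted p = 0.0145).

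Eif5, which encodes the GTPase-activating protein of eIF2 (ENSMUSG00000021282, chr12:111538016-111546752, plus strand), had 15152, 12226, 12623 and 9573 normalised reads in vehicle and 14022, 10915, 10930.2 and 9036 in acetate. Each pair was lower in acetate, with a change of -0.14 ± 0.027 (limma, adjusted p = 0.00823), and the groups overlapped. Eif1ad (ENSMUSG00000024841, chr19:5366741-5371526, plus strand) had 1618, 827, 905 and 595 in vehicle and 1526, 706, 779 and 477 in acetate, with library 1 well above the rest in both groups. Its change was -0.21 ± 0.043 (limma, adjusted p = 0.0117), and it overlaps Banf1 on the opposite strand.

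The relatives of the called genes had smaller values. The eIF1A genes Eif1a and Eif1ax changed by -0.062 ± 0.026 and -0.029 ± 0.033, and Eif1b, a paralog of Eif1, by 0.052 ± 0.041. Eif6, which keeps the large subunit from joining too early, was lower in 4 of 4 pairs at -0.12 ± 0.036 (limma, adjusted p = 0.0694), and edgeR (adjusted p = 0.015) and DESeq2 (adjusted p = 0.0497) called it. Eif5b, the GTPase of subunit joining, had -0.0090 ± 0.025. The hypusinated Eif5a and its paralog Eif5a2, which also act in elongation, had -0.011 ± 0.028 and 0.044 ± 0.056. Eif2a and Eif2d, initiator tRNA carriers outside eIF2, had -0.014 ± 0.028 and 0.0033 ± 0.037.

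Set side by side, the groups had medians of -0.080 for eIF2, -0.023 for eIF2B, -0.051 for eIF3, -0.0019 for eIF4 and -0.021 for the other factors, beside 0.018 over all genes and -0.0080 over genes with at least 1000 units. The eIF2 median lay below 0 in each pair (-0.068, -0.057, -0.056 and -0.14), as did that of eIF2B (-0.087, -0.11, -0.053 and -0.086) and that of eIF3 (-0.025, -0.062, -0.035 and -0.094). That of eIF4 lay on both sides of 0 (0.0026, 0.0092, -0.0012 and -0.020). Of the eIF4 factors 6 were below 0 and 5 above, against 3 and 0 for eIF2, 4 and 1 for eIF2B, and 12 and 2 for eIF3. Genes of one complex are not replicates of a condition, so the difference between groups was described and not tested. Median-of-ratios scaling lowered the median change of genes with at least 10 units by 0.019, about as far as the eIF4 median then moved, to -0.021. The 4E-BPs had a median of -0.22, which was the value of the scarce Eif4ebp3 and says little of the pair that was expressed.

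The level of an initiation factor mRNA depended far more on the replicate than on acetate. Of the 47 members with at least 10 units, 35 (74.5%) were highest in replicate 1 in both groups, beside 26.0% of 13292 genes with that level. In 37 the lowest library was replicate 4 in both groups, for which the share over all genes was not computed. Eif1b, Eif2d, Eif3h and Eif4b went the other way and were lowest in replicate 1. The members together took 1.93%, 1.45%, 1.49% and 1.31% of vehicle libraries 1 to 4 and 1.87%, 1.40%, 1.44% and 1.24% of the acetate libraries, less in acetate in each pair. The gap between the highest and lowest pair mean had a median of 0.65 on the log2 scale, from 0.051 for Eif3k to 1.56 for Eif1ad, and it was larger than the change with acetate in 47 of 47. That count sets a range of pair means against a mean of pair differences, which favours the range. It was not made for all genes. All genes had a median gap of 0.59. Of the 8 members that fell, 6 had their smallest fall in pair 1 (75%), beside 220 of the 535 genes that fell in all (41.1%).

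**Figure D4:**
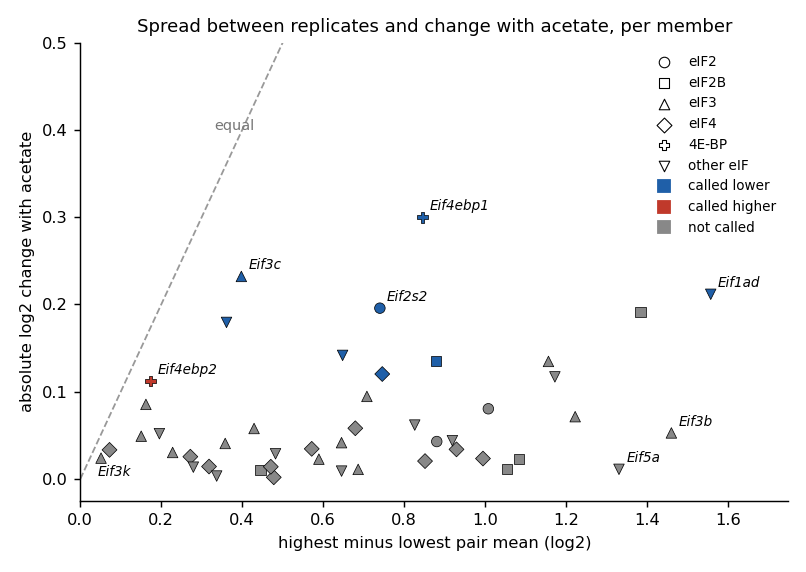
Gap between the highest and the lowest pair mean (horizontal axis, log2) against the absolute log2 change with acetate (vertical axis) for 47 members, with symbols for the factor group and colours for the call. Every member lies to the right of the dashed line of equality, and the called members sit at gaps from 0.17 (Eif4ebp2) to 1.56 (Eif1ad).

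The levels also differed widely between members. Per kilobase of annotated exon in vehicle, Eif5a was highest at 10097 ± 4198 reads, followed by Eif4a1 at 5759 ± 1044 and Eif1 at 4418 ± 404. The next were Eif3h at 4084 ± 347, Eif3c at 3774 ± 289.8 and Eif3l at 3662 ± 709, and each of these differed from the next by less than the sum of their SDs. The subunits of eIF2 were close to each other, at 934 ± 275 for Eif2s1, 894 ± 168 for Eif2s2 and 787 ± 232 for Eif2s3x. Those of eIF2B were less even, from 95.7 ± 37.3 for Eif2b3 to 835 ± 209 for Eif2b5, which lay within the spread of the eIF2 subunits. All annotated exons of a gene were counted in its length, so genes with long, seldom used exons come out too low.

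Other genes of the pathway were read from 7 lists. Among 14 partners and regulators of eIF4F, 2 rose and 2 fell, or 14.3% each way. Of all genes 5.99% were called higher and 2.65% lower, and of those with at least 1000 units 9.38% and 7.09%. Pabpc4 and Pabpc1, poly-A binding proteins that contact eIF4G, fell, with log2 changes of -0.19 ± 0.029 (limma, adjusted p = 0.00293) and -0.092 ± 0.024 (adjusted p = 0.0382). Paip2, which sequesters the poly-A binding protein, rose by 0.12 ± 0.029 (adjusted p = 0.0297), and Mknk2, a kinase of eIF4E, by 0.18 ± 0.029 (adjusted p = 0.00368). The call of Paip2 was lost in edgeR (adjusted p = 0.0542), in DESeq2 (0.188) and in limma after median-of-ratios scaling (0.0617), and that of Pabpc1 after quantile scaling. Mknk2 had 1861, 2993, 2856 and 3017 normalised reads in vehicle and 2035, 3404, 3195 and 3559.9 in acetate, higher in each pair. For Pabpc1 the groups did not overlap, with 88866, 87732, 92001 and 86954 in vehicle and 85306, 82651, 85862 and 79859 in acetate.

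Among 14 genes of mTORC1 and S6 kinase, which act on the 4E-BPs, 2 rose and 1 fell, and the 3 called encode inhibitors of mTORC1. The share called higher was 14.3%, beside 5.99% of all genes and 9.38% of those with at least 1000 units. The share called lower was 7.14%, beside 2.65% and 7.09%. Sesn2, which senses leucine and is itself raised by Atf4, fell by 0.51 ± 0.086 (limma, adjusted p = 0.00442). Sesn3 and Ddit4 rose by 0.23 ± 0.050 (adjusted p = 0.0157, higher in 3 of 4 pairs) and 0.11 ± 0.029 (adjusted p = 0.0412). The call of Ddit4 was lost in edgeR (adjusted p = 0.0802), in DESeq2 (0.182) and in limma after median-of-ratios scaling (0.0822). The subunits and targets, such as Mtor (0.024), Rptor (-0.11) and Rps6kb1 (0.035), were not called by limma. Rptor and Rheb (-0.13), the GTPase that activates mTORC1, were called lower by edgeR (adjusted p = 0.024 and 0.0185) and by limma after median-of-ratios scaling (0.0332 and 0.0444).

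Among 9 genes for the eIF2α kinases, phosphatase subunits and their modulators, Ppp1r15b alone was called. This is 11.1%, beside 2.65% of all genes called lower and 7.09% of those with at least 1000 units. Ppp1r15b fell by 0.11 ± 0.027 (limma, adjusted p = 0.031). It targets the phosphatase to eIF2α. The 4 kinases Eif2ak1 to Eif2ak4 had 0.081, 0.092, 0.15 and -0.015. Of 6 genes of the Atf4 branch, which acts downstream of phosphorylated eIF2α, Atf5, Chac1, Trib3, Asns and Atf4 fell, with log2 changes from -0.72 for Atf5 to -0.37 ± 0.047 for Atf4 (limma, adjusted p = 0.00103). They were 83.3% of this list, beside 2.65% of all genes and 7.09% of those with at least 1000 units. Ddit3, at -0.23, was not called. Eif4ebp1 is a known target of Atf4, whose part in its fall was not tested. Side by side over pairs 1 to 4, the log2 differences were -0.14, -0.49, -0.42 and -0.44 for Atf4 and -0.10, -0.36, -0.49 and -0.24 for Eif4ebp1. Both had their smallest fall in pair 1, as did 220 of the 535 genes that fell in all (41.1%). The largest fall was in pair 2 for Atf4 and in pair 3 for Eif4ebp1.

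In the neighbouring steps, Ltv1, a 40S assembly factor, fell by 0.20 ± 0.046 (limma, adjusted p = 0.0182). It was 1 of 8 factors of initiation, recycling and 40S maturation outside the eIF names (12.5%, beside 2.65% of all genes and 7.09% of those with at least 1000 units). Abce1, the ribosome recycling factor of this list, had -0.098 ± 0.029 (limma, adjusted p = 0.0626) and was called lower by edgeR (adjusted p = 0.0125), by DESeq2 (0.0383) and by limma after median-of-ratios scaling (0.035). Gfm1, a mitochondrial elongation factor, fell by 0.15 ± 0.035 (limma, adjusted p = 0.0228), 1 of 9 in its list (11.1%). Of 10 elongation and termination factors 0 were called by limma, with 2 at an unadjusted p under 0.05. By edgeR the same 2, Eef1a1 and Eef1b2, passed and by DESeq2 Eef1b2. The changes of the list by limma ran from -0.10 to 0.024 with 9 of 10 below 0.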

How the data were processed

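Poly-A RNA of 8 4T1 cultures was sequenced from stranded libraries. The submitters' processing notes name STAR, HTSeq and build GRCm38 (mm10), and the use of strand in counting is not given in the sources used here. In the deposited table the authors gave signal values, gene reads scaled to library size, and kept genes expressed in 4 or more libraries. Values were whole multiples of 1 read (100% within 0.05), so reads were recovered for the count alternatives. Symbols came from GENCODE M21.

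Acetate was compared with vehicle by limma 3.58.1 (R 4.3.3, trend, two-sided) on log2(value + 1), with the replicate number as a block and Benjamini-Hochberg adjustment over 20189 genes. Adding 1 understates the change of low genes. The numbers were taken as pairs because both libraries of a number carry the same code, and deviations from the group mean correlated within numbers 1 to 4 at 0.81, 0.27, 0.20 and 0.69 over 18188 genes. Alternatives were no replicate block, pseudocounts of 0.1 and 5, a mean of at least 10 units, median-of-ratios and quantile scaling, edgeR 4.0.16 and DESeq2 1.42.0 on recovered reads with the block, and leaving out each pair. Methods were tested on simulated data with changes larger than those of the called members, so this test does not bear on calls of their size.

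Members and lists were chosen with earlier results of these data known. Library values are given for eIF2, eIF2B, the 4E-BPs, Eif4e, Eif4a1, Eif4a2, Eif4g1 and called members that went 1 way in 4 of 4 pairs. From the lists, called genes are named, with values for up to 3 each. Counting error and the pairs' spread set the precision.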

Additional observations from a re-analysis of the deposited data

Results flagged for a closer look

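In 6 of 94 groups of 4 libraries (1 member in 1 treatment), the highest library stood far from the other 3, measured as its gap to the next divided by the whole range. Chance alone flags about 1 in 20 groups, or 4.7 of 94. All 6 were replicate 1. The share was 0.859 for Eif2b2 in vehicle, with 1108 normalised reads against 862 to 897. It was 0.869 for Eif2s3x in vehicle, with 4317 against 2417 to 2666. Eif3l in vehicle had 0.848, with 17154 against 11508 to 12365. Eif3m had 0.859 in vehicle, with 3542 against 2705 to 2823, and 0.854 in acetate, with 3536 against 2553 to 2696. Eif4g2 in acetate had 0.838, with 35916 against 21073 to 23473, and its fall was called without replicate 1 as well. What sets replicate 1 apart was not tested.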

How the results depend on the processing

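The pairing decided the calls. With no replicate block, 0 genes, 0 members in either direction and 0 genes of the other lists were called, against 1744, 8 lower and 1 higher, and 15. Leaving out 1 pair at a time gave 409 to 1662 genes, 0 to 8 members lower, 0 to 1 higher and 5 to 17 list genes, fewest without replicate 3. DESeq2 gave 1126 genes and 0 members higher, median-of-ratios scaling 0 members higher, and edgeR 14 lower. Of all genes called, 69.3% were higher, against 54.9% with median-of-ratios scaling. The eIF2B median was -0.047 by edgeR, -0.046 by DESeq2 and -0.067 to -0.011 without 1 pair. That of eIF4 was -0.021, -0.020 and -0.021 with median-of-ratios scaling, edgeR and DESeq2, and -0.0087 to 0.014 without 1 pair. That of the other factors was -0.040, -0.039 and -0.040, and -0.042 to -0.014. Sign changed for 9 members, none of them called. With median-of-ratios scaling the changes became -0.0080 for Eif2b4, -0.016 for Eif2d, -0.0082 for Eif3i and -0.0052 for Eif4h. By DESeq2 they became -0.0049, -0.016, -0.0087 and -0.0052, and by edgeR -0.014 for Eif2d, -0.0073 for Eif3i and -0.0037 for Eif4h. With quantile scaling they became 0.0069 for Eif4b, 0.0036 for Eif4g1, -0.0029 for Eif4h, 0.0047 for Eif5a and -0.0034 for Eif5a2. Without 1 pair they spanned -0.041 to 0.022 for Eif2b2, -0.013 to 0.035 for Eif2b4, -0.018 to 0.026 for Eif2d, -0.021 to 0.028 for Eif3i, -0.0087 to 0.014 for Eif4b and -0.038 to 0.0086 for Eif5a. The cause was not tested. At 19.9 to 29.3 M reads, counting error adds to the spread between pairs, most for low members such as Eif4ebp3 and Eif5a2.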
